A study of Mus musculus and Homo sapiens with 26 samples.

Results

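The let-7 family of guide 5p-miRNAs was followed in P19 mouse embryonic carcinoma cells with and without a hotspot change in RNase IIIb of Dicer. The amount of each member left in the cells and held by AGO2 was compared. Members were taken by name alone: let-7a, let-7b, let-7c, let-7d, let-7e, let-7f, let-7g, let-7i and miR-98, each with the 5p ending. All 9 were in the P19 tables, out of 1396 miRNA names with values, and 9 human counterparts were found among 1080 names in the HEK293T table. Small RNA sequencing (miR-seq) had been run on 26 libraries. Total RNA came from WT cells (Dicer +/+), from HetKO cells (Dicer +/-, a frameshift in one allele) and from HM cells (Dicer HM/-, the same lost allele plus the hotspot change E1797G on the remaining one), with 6 libraries each. Immunoprecipitates of AGO2 (AGO2 IP) were sequenced from WT cells (2 libraries) and HM cells (4 libraries). The last 2 libraries came from HEK293T, a human kidney line, in which DICER had been knocked out and either WT Dicer or Dicer D1320A, changed in RNase IIIa, put back. HM cells were made from a clonal HetKO line, so that a difference between HM and WT cannot be told apart from one between clones. The sample names give D1320A for the second HEK293T library whereas the design text of the series names E1813G, and the sample name was followed here.

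Dicer cuts a hairpin precursor with 2 RNase III domains: RNase IIIa frees the 3p strand, and RNase IIIb frees the 5p strand. One strand of the resulting duplex, the guide, stays in an Argonaute protein such as AGO2, and the other, the passenger, is discarded. The let-7 miRNAs are 5p guides that repress growth genes including Ras, Hmga2 and Lin28, and they are kept low in embryonic cells and rise as cells differentiate. Most let-7 precursors (let-7b, d, f, g, i and miR-98) leave the nucleus with an overhang shorter by a base than usual and are extended by terminal uridylyl transferases before Dicer cuts them. let-7c and let-7e come from precursors with the usual overhang, and let-7a comes from both kinds.

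The mature sequences are shown because the members share 1 seed and are otherwise so alike that reads of one could be assigned to another. They are RefSeq sequences on build GRCm38.p6, 5′ to 3′, with the seed (bases 2 to 8) in capitals.
mmu-let-7a-5p: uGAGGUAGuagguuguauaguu
mmu-let-7b-5p: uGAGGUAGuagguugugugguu
mmu-let-7c-5p: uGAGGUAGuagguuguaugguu
mmu-let-7d-5p: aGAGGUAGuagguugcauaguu
mmu-let-7e-5p: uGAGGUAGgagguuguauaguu
mmu-let-7f-5p: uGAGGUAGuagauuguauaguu
mmu-let-7g-5p: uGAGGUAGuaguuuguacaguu
mmu-let-7i-5p: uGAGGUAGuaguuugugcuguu
mmu-miR-98-5p: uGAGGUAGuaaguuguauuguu

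All 9 sequences are 22 bases long and hold the seed GAGGUAG. Counting from 1 at the 5′ end, with the base of let-7a first, let-7c differs from let-7a by A19G, let-7e by U9G and let-7f by G12A. let-7b differs by A17G and A19G, let-7d by U1A and U16C, let-7g by G12U and U18C, and miR-98 by G11A and A19U. let-7i differs most, by G12U, A17G, U18C and A19U. let-7b and let-7c are also 1 base apart. How the counting tool divides reads between sequences 1 base apart was not given in the sources used here, so that small amounts of let-7c beside much let-7a or let-7b, or the reverse, are uncertain. The other names with this seed, miR-1961 and let-7k, reached at most 0.361 and 0.406 spike-in normalized reads in any total RNA library, about 1 read.

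The mature sequences lie in host transcripts of several kinds (RefSeq positions, GRCm38.p6; host genes from GENCODE). let-7a (chr13:48538239-48538260), let-7f of Mirlet7f-1 (chr13:48537889-48537910) and let-7d (chr13:48536078-48536099) sit together on the minus strand in exons of the lincRNA 6720427I07Rik. let-7c of Mirlet7c-2 (chr15:85706616-85706637) and let-7b (chr15:85707325-85707346) sit on the plus strand in exons of the noncoding transcript Lncppara. let-7f of Mirlet7f-2 (chrX:151912353-151912374) and miR-98 (chrX:151913229-151913250) are in an intron of Huwe1 on its own strand. let-7c of Mirlet7c-1 (chr16:77599672-77599693) is in an intron of Mir99ahg, let-7e (chr17:17830366-17830387) in an intron of Spaca6, and let-7g (chr9:106178846-106178867) in an intron of Wdr82, each on the host's strand; the first also lies in an intron of Gm11146 on the other strand. let-7i (chr10:122985698-122985719, minus strand) overlaps an exon of the pseudogene D630033A02Rik. A member with several hairpins is counted once, so that its reads cannot be divided among them.

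Levels in total RNA are spike-in normalized reads, the authors' scale that sets each library by an RNA added in a fixed amount, and errors are SD over libraries. Libraries held between 1530466 and 3246326 miRNA reads in total RNA and between 4476845 and 5889717 in AGO2 IP. A count of 0 allows up to 3 reads, which came to 1.22 or less on the total RNA scale and 0.655 RPM or less for AGO2 IP (counting error only). The embryonic character of the cells was checked on 8 miRNAs of the miR-290 and miR-302 clusters. Their summed level lay between 85606 and 96153 in WT total RNA, with HetKO between 75551 and 95075 and HM between 60563 and 87578. None of 6 miRNAs listed for other tissues had a mean of 0 in any group, and they had a summed level of 399.6 to 1261 in WT, 289.2 to 676 in HetKO and 591 to 880 in HM. In WT and HetKO, replicates 1 and 4, 2 and 5, and 3 and 6 deviated together, with a mean correlation across miRNAs of 0.736 and 0.740, against -0.0626 in HM. The labels name no batch for these sets, and values within the sets are given where they bear on a result. The labels call the P19 replicates biological and do not say what set them apart, so that p-values measure the spread between these libraries.

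In WT cells the family was a small part of the 5p-miRNAs, and its members differed widely in level. Together they made up 0.723% ± 0.0208 (SD, n = 6) of the 5p signal in WT total RNA. The order was let-7f (1076 ± 131, SD, n = 6), let-7e (796 ± 135), let-7c (790 ± 97.2), let-7a (614 ± 75.1), let-7i (354 ± 41.7), let-7g (222 ± 11.9), let-7d (37.2 ± 5.34), let-7b (33.6 ± 5.85) and miR-98 (15.6 ± 2.44). Since all are of 1 length, levels may be set side by side, although unequal capture of different sequences by the library chemistry was not tested. The ranges over libraries overlapped between neighbours in this order except at 4 steps, from let-7a to let-7i, from let-7i to let-7g, from let-7g to let-7d and from let-7b to miR-98.

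In HM cells all 9 members lay below their WT range in total RNA, but what remained ran from 0.163% of WT for let-7c to 37.7% for let-7b. These percentages hold on the spike-in scale, and where each library was rescaled to the same total they ran from 0.340% for let-7c to 82.0% for let-7b. The summed family level was 3393 at the lowest, 4043 at the median and 4579 at the highest in WT, and 75.2, 136 and 161 in HM. HM thus kept 3.14% ± 0.840 (SD, n = 6) of the WT mean, or 2.08% when only replicates 1 and 4 were used, 3.35% with replicates 2 and 5, and 4.05% with replicates 3 and 6. The 2 sets of libraries did not overlap for any of the 9 members, as for 52.9% of the 416 miRNAs tested. limma called 8 of 8 tested members lower, against 59.4% of all miRNAs tested and 98.9% of the 180 5p-miRNAs among them. miR-98 was below the filter (a mean of at least 10 over the libraries compared) and was not tested in that fit. let-7c, let-7d, let-7e and let-7g had HM means below 10 and passed only through their WT level, so that their direction was fixed by the filter. The median log2 difference was -4.79 over the 8 members, -6.13 over the 5p-miRNAs and -1.15 over all miRNAs tested.

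**Figure D1:**
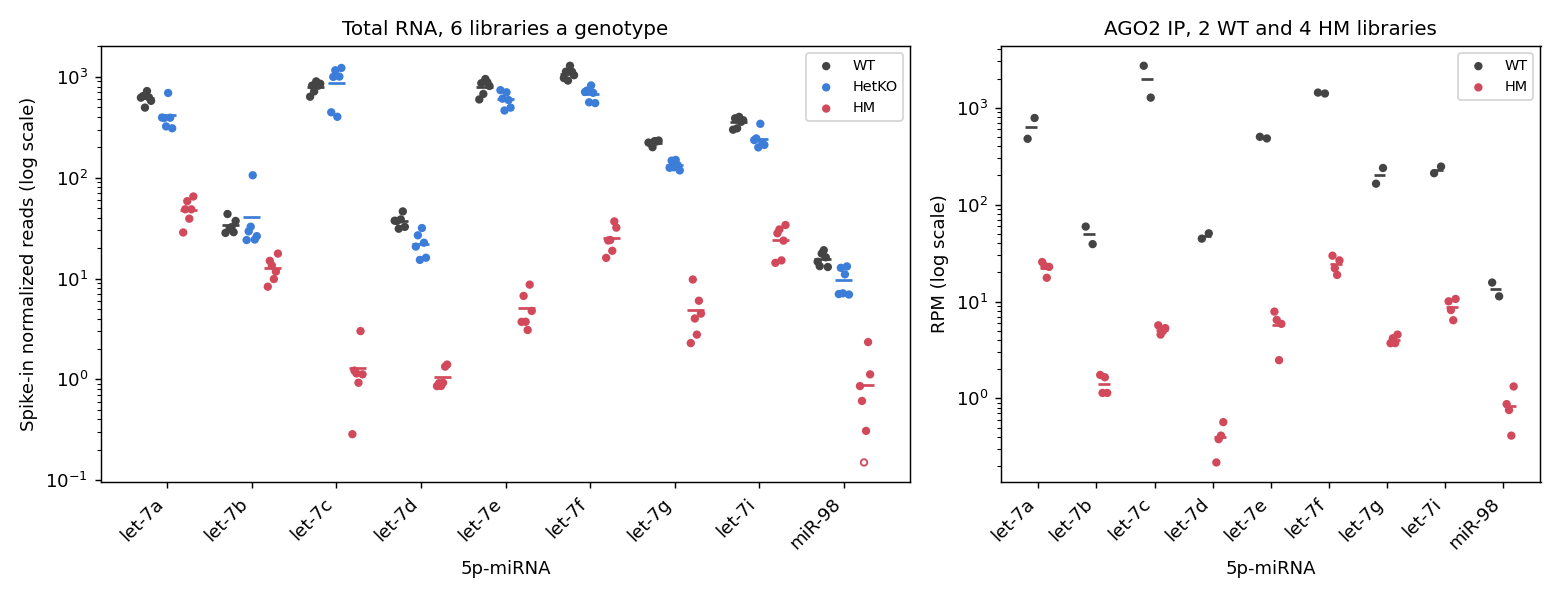
Level of each let-7 family 5p-miRNA in every library, in spike-in normalized reads for total RNA (left) and RPM for AGO2 IP (right), both on log axes. Points are libraries, bars are group means, and an open point marks a value of 0 drawn at the bottom (miR-98 in 1 HM library). All HM points lie below all WT points of the same member, and let-7b shows the smallest gap in total RNA.

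let-7c and let-7e kept the smallest percentages of WT in total RNA. let-7c ran from 635 through a median of 817 to 900.1 in WT and from 0.286 through 1.13 to 3.01 in HM. This left 0.163% ± 0.115 (SD, n = 6) of WT, and each HM library held only 1 to 9 let-7c reads. The log2 difference was -8.51 ± 0.219 (SE, limma). No p-value is given for it, since let-7c passed the filter only through its WT level. let-7e ran from 596 through 837 to 951 in WT and from 3.09 through 4.25 to 8.70 in HM. It kept 0.643% ± 0.272 (log2 difference -7.08 ± 0.215, given without a p-value for the same reason). The median over the 213 5p-miRNAs with a WT mean of at least 10 was 0.568%. let-7e lay near it, ranked 95th from the highest, and let-7c lay below the lower quartile of 0.261%, ranked 191st.

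The remaining members lay above that median. let-7f, the most abundant in WT, ran from 917 through 1079 to 1286 in WT and from 16.01 through 23.9 to 36.8 in HM. Its log2 difference was -5.40 ± 0.191 (adjusted p = 4.10e-13, limma) and 2.35% ± 0.730 was left. let-7g ran from 200.4 through 225 to 233 in WT and from 2.29 through 4.25 to 9.77 in HM, with 2.20% ± 1.23 left (log2 difference -5.36 ± 0.240). let-7d was low in both, at 31.2 through 37.3 to 46.3 in WT and 0.858 through 0.921 to 1.40 in HM, which is 3 to 5 reads a library. It kept 2.82% ± 0.673, and its log2 difference of -4.22 ± 0.137 is understated by the pseudocount of 1. let-7d and let-7g passed the filter only through their WT level, so that no p-value is given for them.

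let-7a, let-7i and miR-98 were among the better retained. let-7a ran from 495 through 622 to 722 in WT and from 28.6 through 48.5 to 65.0 in HM, with 7.83% ± 2.13 left (log2 difference -3.68 ± 0.188, adjusted p = 3.80e-11). let-7i ran from 299 through 364 to 400.2 in WT and from 14.3 through 25.9 to 33.9 in HM, with 6.87% ± 2.30 left (log2 difference -3.87 ± 0.212, adjusted p = 9.67e-11). let-7a ranked 8th and let-7i 9th from the highest among the 213 5p-miRNAs. miR-98 ran from 13.001 through 15.4 to 19.1 in WT and from 0 through 0.734 to 2.34 in HM, at 0 to 7 reads a library. It kept 5.58% ± 5.25, and without the filter its log2 difference was -3.25 ± 0.239 (adjusted p = 1.82e-08).

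let-7b stood apart from its relatives. It ran from 28.3 through 31.7 to 43.6 in WT and from 8.29 through 12.6 to 17.7 in HM, with 29 to 63 reads in each HM library. This left 37.7% ± 10.2 (SD, n = 6) of WT, the 5th highest share among the 213 5p-miRNAs. The log2 difference was -1.36 ± 0.183 (adjusted p = 5.36e-06), against a median of -1.15 over all miRNAs. Where each library was rescaled to the same total, it was -0.31 ± 0.188 and no longer called (adjusted p = 0.133), and the median of all miRNAs moved to 0.25.

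Levels of a miRNA from another tissue are given beside let-7b. miR-122-5p, a liver miRNA, was at 60.3 ± 40.1 in WT, 41.6 ± 15.8 in HetKO and 45.9 ± 22.5 in HM, so that 76.1% was left. In HM miR-122-5p was at 60.3 and 79.9 in replicates 1 and 4. It was at 40.6 and 49.8 in replicates 2 and 5 and at 23.2 and 21.3 in replicates 3 and 6. In the same libraries let-7b was at 8.29 and 9.87 in replicates 1 and 4. It was at 14.96 and 11.7 in replicates 2 and 5 and at 13.5 and 17.7 in replicates 3 and 6. let-7a was at 28.6 and 39.2 in replicates 1 and 4. It was at 48.6 and 48.5 in replicates 2 and 5 and at 58.5 and 65.0 in replicates 3 and 6. Any part of RNA from other cells in the let-7 reads left in HM was not tested.

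**Figure D2:**
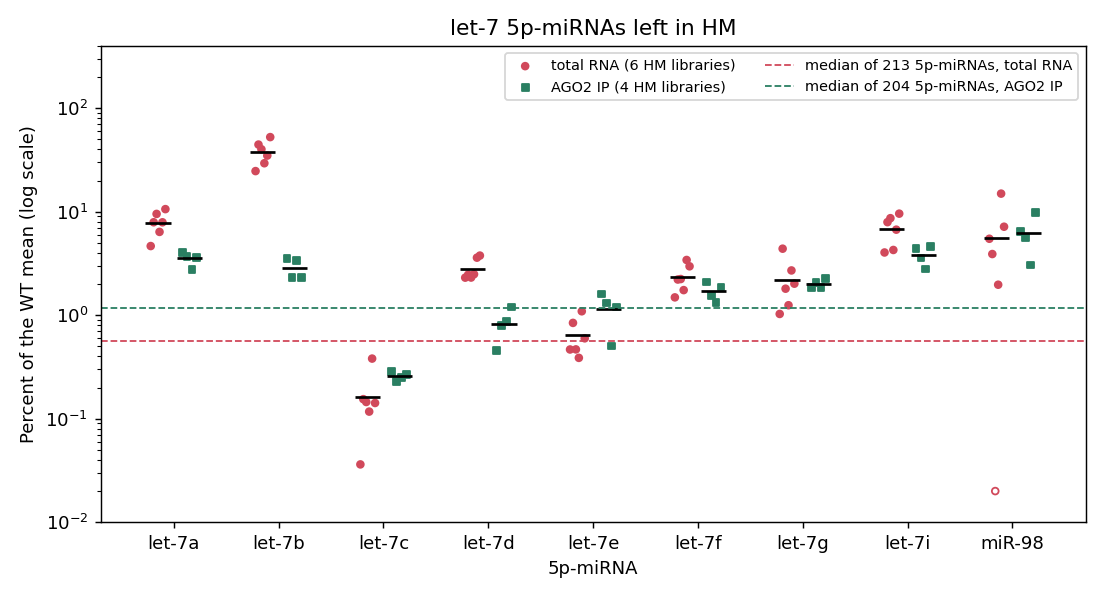
Percent of the WT mean left in HM for each let-7 family 5p-miRNA, on a log axis, in total RNA (circles, 6 HM libraries) and AGO2 IP (squares, 4 HM libraries). Black bars are the ratios of group means, dashed lines the medians over all 5p-miRNAs (0.568% and 1.17%), and an open point a value of 0 drawn low. let-7b sits at 37.7% in total RNA and 2.89% in AGO2 IP, while let-7c sits at 0.163% and 0.258%.

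Whether members were lost to different degrees was tested on the log2 ratio of each pair within a library, compared between HM and WT (two-sided exact permutation test over all relabellings of 6 against 6 libraries, which can give no p below 0.00216). Of 36 pairs, 31 differed at a Benjamini-Hochberg adjusted p under 0.05, and 25 were called in the same direction under each alternative run. The test treats libraries of a group as interchangeable, and pairs were not tested on means of the replicate sets. Any likeness within a set is therefore not allowed for in these p-values. By percent of WT left, let-7c was lowest in every set (0.0789%, 0.259% and 0.145%) and let-7b highest (30.0%, 36.8% and 45.5%), without a test. All 8 pairs of let-7c with another member were among the 25, so that let-7c lost more than every other member. let-7b lost less than each of the other 8, a difference called under each alternative for all but miR-98. Against let-7a, the next in the order, let-7b was retained 2.32 log2 units more (adjusted p = 0.00278). let-7e lost 1.72 log2 units more than let-7g and 1.67 more than let-7f (adjusted p = 0.00278 for both).

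Some neighbours in the order were not separated. let-7a and let-7i differed in loss by 0.19 log2 units (adjusted p = 0.0877), and let-7f and let-7g by 0.05 (adjusted p = 0.963). let-7i and miR-98 differed by 0.63 in the order opposite to their percentages (adjusted p = 0.116), a pair that changes direction with a pseudocount of 0.1. Ratios that involve let-7c, let-7d and miR-98 move with the pseudocount because their HM levels are near 1. For let-7c the direction held but the size did not: let-7a over let-7c was 4.82 log2 units at a pseudocount of 1, 5.69 at 0.1 and 2.69 at 10. The difference between let-7d and let-7f was 1.19 log2 units at a pseudocount of 1, 0.42 at 0.1 and 2.88 at 10.

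The make-up of the family differed between WT and HM, as a description with no test. let-7a went from 15.6% ± 1.32 of the family signal in WT to 39.1% ± 3.64 in HM, and let-7i from 8.99% ± 0.312 to 19.4% ± 2.42. let-7b, at 0.857% ± 0.139 in WT, made up 10.3% ± 1.12 in HM. let-7c went from 20.1% ± 1.09 to 0.993% ± 0.593 and let-7e from 20.1% ± 1.42 to 4.19% ± 1.36 (SD, n = 6 for each). The family as a whole was 2.38% ± 0.766 of the 5p signal in HM and 0.596% ± 0.0399 in HetKO.

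As a sum, the duplex partners moved the other way. Values were present for 10 let-7 3p strands, which are passengers, and their summed level in total RNA was between 35.98 and 44.8 in WT, between 25.2 and 33.4 in HetKO, and between 78.1 and 142 in HM. The 5p strand therefore made up 99.0% ± 0.0683 of let-7 reads in WT, 99.1% ± 0.0968 in HetKO and 54.1% ± 6.69 in HM (SD, n = 6). In AGO2 IP it made up 98.6% ± 0.0312 in WT (n = 2) and 8.32% ± 1.00 in HM (n = 4). HM did not overlap with WT in either assay, whereas WT and HetKO overlapped in total RNA. Taken singly, only let-7a-1-7c-2-3p and let-7e-3p did not overlap between HM and WT in total RNA. The sum in HM total RNA, 103 on average, was mostly let-7a-1-7c-2-3p. let-7a-1-7c-2-3p, the passenger of both let-7a-1 and let-7c-2, was the 1 partner that passed the filter in total RNA. It was called higher, from 21.9 ± 1.62 in WT to 66.1 ± 16.9 in HM (log2 difference 1.52 ± 0.161, adjusted p = 3.83e-07), where 22.8% of all miRNAs tested were called higher.

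In AGO2 IP, 5 of the 10 let-7 3p strands passed the filter. let-7e-3p, let-7f-2-3p and let-7i-3p passed only through their HM level, with WT means below 10 RPM, so that a higher value in HM was fixed by the filter and they are given as values. let-7a-1-7c-2-3p and let-7d-3p were above 10 RPM in WT as well and were called higher in HM, as were 54.0% of all 467 miRNAs tested there. let-7d-3p was at 28.5 ± 5.17 RPM in WT and 255 ± 21.3 RPM in HM (log2 difference 3.13 ± 0.189, adjusted p = 6.43e-06). In HM let-7d-3p thus stood at 255 RPM where its guide, let-7d-5p, stood at 0.395 RPM. In WT the 2 strands were already closer in AGO2 IP, at 28.5 RPM for let-7d-3p and 47.5 RPM for let-7d-5p, than in total RNA (1.97 and 37.2). let-7e-3p was at 4.13 ± 0.709 RPM in WT and 86.3 ± 6.04 RPM in HM.

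**Figure D3:**
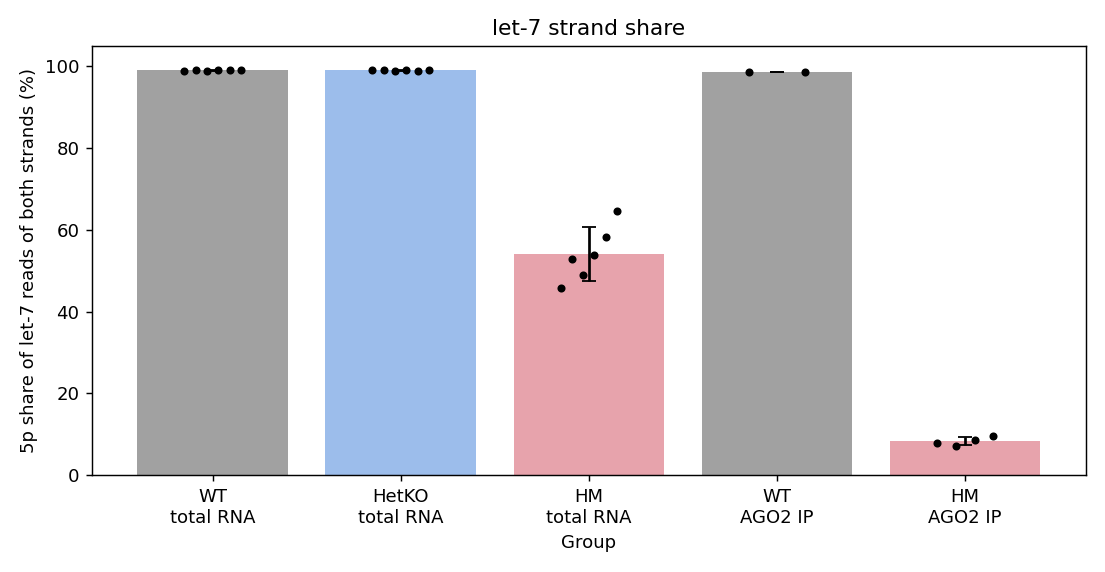
Share of let-7 reads of both strands that came from the 5p strand, in percent, for each group. Bars are means, error bars SD, and points single libraries. The share is near 99% in WT and HetKO, 54.1% in HM total RNA and 8.32% in HM AGO2 IP.

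In HetKO cells the family stayed closer to its WT level. The summed level in HetKO ran from 2696 through 3024 to 3255, all below the lowest WT library, at 76.5% ± 5.27 (SD, n = 6) of the WT mean. limma called 6 of 9 members lower in HetKO than in WT, where 22.8% of all miRNAs tested were called lower. let-7g was at 60.0% ± 5.76 of WT (log2 difference -0.74 ± 0.0897, adjusted p = 8.89e-05) and let-7f at 62.9% ± 9.78 (-0.68 ± 0.124, adjusted p = 0.00158). These were the members whose libraries did not overlap between HetKO and WT, as for 12.9% of miRNAs tested. let-7d was at 59.7% ± 16.9 (adjusted p = 0.00558), let-7i at 68.5% ± 14.5 (adjusted p = 0.00813), miR-98 at 61.8% ± 19.1 (adjusted p = 0.0127) and let-7a at 67.9% ± 22.8 (adjusted p = 0.0222). miR-98 had a HetKO mean of 9.67 and passed the filter only through its WT level, so that its direction was fixed by the filter. The let-7a call was lost without WT replicate 4 (adjusted p = 0.0530) or without HetKO replicate 3 (adjusted p = 0.0514). No member was called higher, as were 4.38% of all miRNAs and 4.72% of the 212 5p-miRNAs, of which 25.5% were called lower.

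The remaining 3 members were not called. let-7e was at 75.2% ± 13.7 of WT (log2 difference -0.41 ± 0.149, adjusted p = 0.0568), and was called when WT replicate 1 or 3 or HetKO replicate 1 or 4 was left out (adjusted p from 0.0268 to 0.0482). let-7b was at 120% ± 95.7, a mean that rests on replicate 4 at 106 while the other 5 libraries were between 24.1 and 32.6. Without that library it was at 81.4% of WT. let-7c was at 110% ± 45.4, with HetKO replicates 1 and 4 at 445 and 401 and the other 4 libraries between 998 and 1223.

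The HetKO result also depended on how the replicates were treated. With the sets 1 and 4, 2 and 5, and 3 and 6 averaged to 3 samples a group, only let-7g was called among the members, and 17 miRNAs were called lower instead of 99. let-7g was lower in each set, at 60.8%, 62.7% and 56.4% of WT. let-7c was lower within replicates 1 and 4 (55.1% of WT, adjusted p = 0.0118) and higher within 2 and 5 (123%, adjusted p = 0.0261) and within 3 and 6 (152%, adjusted p = 0.000568).

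**Figure D4:**
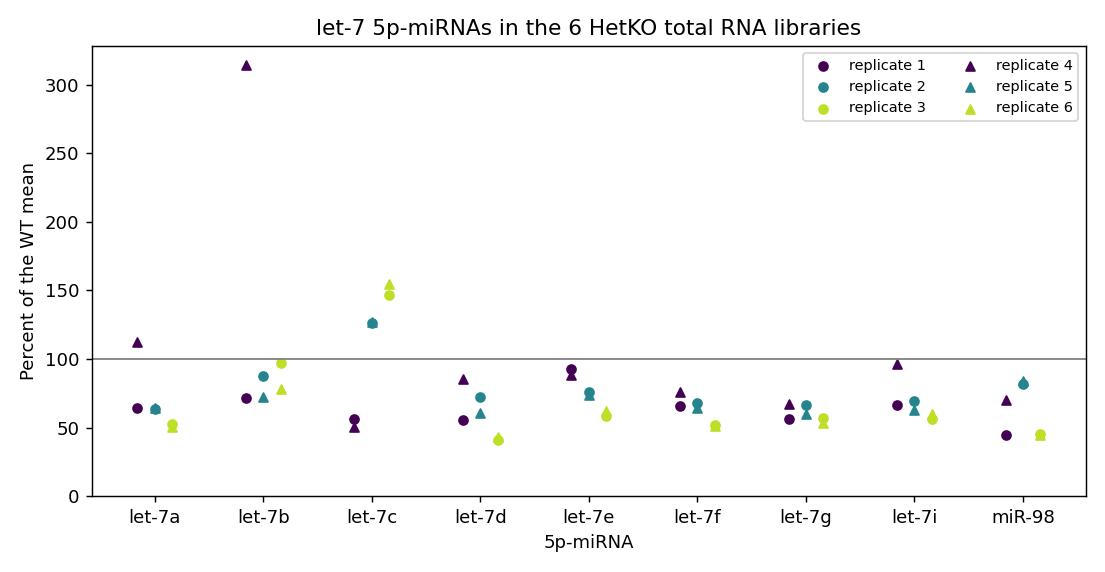
Percent of the WT mean for each let-7 family 5p-miRNA in the 6 HetKO total RNA libraries. Colours mark replicates that deviate together (1 and 4, 2 and 5, 3 and 6), circles replicates 1 to 3 and triangles 4 to 6, and the line is the WT mean. let-7c splits with the sets, and let-7a, let-7b and let-7i are highest in replicate 4.

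Set against HetKO, which shares the lost allele, HM showed the same wide range. limma called 8 of 8 tested members lower (55.2% of 395 miRNAs tested and 98.2% of 167 5p-miRNAs), and the libraries of the 2 genotypes did not overlap for any of the 9 (52.7% of those tested). let-7c, let-7d, let-7e and let-7g, with HM means below 10, passed the filter only through their HetKO level, so that their direction was fixed by it. The comparison shares its HM libraries with that against WT. HM kept 0.147% ± 0.105 of the HetKO level of let-7c, 0.855% ± 0.362 of let-7e, 11.5% ± 3.14 of let-7a and 31.4% ± 8.49 of let-7b. For let-7b the log2 difference was -1.40 ± 0.311 (adjusted p = 0.000530), and -0.45 once libraries were set to equal totals (adjusted p = 0.204).

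The next question was how much of each member AGO2 held. Values in AGO2 IP are RPM, reads relative to the depth of the library, so that a member's value is a share and moves with the rest of its library. All 9 members were lower in each HM library than in both WT libraries. limma called 8 of 8 tested members lower in HM AGO2 IP, where 37.3% of 467 miRNAs were called lower, among them 97.6% of the 166 5p-miRNAs tested. Of the 8, let-7a and let-7f alone had an HM mean above 10 RPM, and the direction of the others was fixed by the filter. The family sum was 5610 and 4521 RPM in WT and 85.4, 71.0, 56.4 and 78.8 RPM in HM, which is 1.44% ± 0.246 (SD, n = 4) of the WT mean.

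let-7c was again the lowest relative to WT. It was at 2707 and 1270 RPM in WT and at 5.68, 4.56, 4.96 and 5.32 RPM in HM. This left 0.258% ± 0.0242 (log2 difference -8.24 ± 0.315, given without a p-value since the filter fixed its direction). The WT libraries differed more than 2-fold in this member, which limits that percentage. let-7e was at 500.3 and 482 RPM in WT and 7.86, 6.46, 2.48 and 5.89 RPM in HM. It kept 1.16% ± 0.465 (log2 difference -6.28 ± 0.386, without a p-value for the same reason).

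let-7b lost its place as the best retained member in AGO2 IP. It was at 59.3 and 39.1 RPM in WT and at 1.75, 1.14, 1.65 and 1.14 RPM in HM, or 6 to 8 reads a library. This left 2.89% ± 0.663 (log2 difference -4.35 ± 0.240, given without a p-value since the filter fixed its direction). let-7i was at 211 and 247 RPM in WT and 10.05, 8.17, 6.41 and 10.6 RPM in HM, and 3.85% ± 0.838 was left. let-7a was at 477 and 783 RPM in WT and 25.6, 23.4, 17.6 and 22.8 RPM in HM, and 3.54% ± 0.537 was left. let-7a, let-7b and let-7i thus stood close together, where their total RNA percentages had been 7.83%, 37.7% and 6.87%.

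let-7f was at 1431 and 1401 RPM in WT and at 29.7, 22.0, 18.8 and 26.6 RPM in HM, the highest member in HM AGO2 IP, with 1.71% ± 0.340 left. let-7g was at 164 and 239 RPM in WT and 3.71, 4.18, 3.72 and 4.56 RPM in HM, with 2.01% ± 0.201 left. The 2 rarest members had few HM reads. let-7d was at 44.5 and 50.5 RPM in WT and 0.218, 0.380, 0.413 and 0.570 RPM in HM, or 1 to 3 reads, with 0.832% ± 0.303 left. This is below let-7e, so that let-7d took the place next to let-7c that let-7e had in total RNA, and that difference was not tested. miR-98 was at 15.7 and 11.3 RPM in WT and 0.874, 0.760, 0.413 and 1.33 RPM in HM, or 2 to 7 reads, with 6.25% ± 2.80 left. Over the 204 5p-miRNAs with a WT mean of at least 10 RPM the median left was 1.17%, and the members' median was 2.01%.

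AGO2 IP was then set over total RNA. The RPM of all miRNAs summed to between 822326 and 832586 in WT and between 975456 and 977911 in HM, so each library was first scaled to a total of 1000000. In WT cells the members were spread around the median of all miRNAs, 0.29 on the log2 scale. limma called 4 of 8 tested members higher in AGO2 IP than in total RNA: let-7c (log2 difference 1.59 ± 0.342, adjusted p = 0.00124), let-7b (0.87 ± 0.256, adjusted p = 0.0118), let-7f (0.75 ± 0.235, adjusted p = 0.0163) and let-7d (0.70 ± 0.179, adjusted p = 0.00467). Of all 465 miRNAs tested 31.8% were called higher, and 33.1% of the 178 5p-miRNAs, so that this count is near what the background gives. Leaving out either WT AGO2 IP library cut it to 1 or 2.

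In HM cells 7 of 8 tested members were called lower in AGO2 IP than in total RNA, where 9.68% of all miRNAs and 7.30% of the 178 5p-miRNAs tested were. On this scale let-7b went from 26.1 ± 8.14 in total RNA (SD, n = 6) to 1.45 ± 0.334 in AGO2 IP (SD, n = 4), a ratio of 18.0. Its log2 difference was -3.43 ± 0.203 (adjusted p = 1.25e-10). let-7i went from 50.1 ± 18.5 to 9.02 ± 1.95 (-2.29 ± 0.223, adjusted p = 1.17e-07) and let-7a from 99.0 ± 30.6 to 22.9 ± 3.44 (-2.03 ± 0.204, adjusted p = 1.73e-07). let-7d, let-7f, let-7g and let-7e differed by -1.16, -0.99, -0.96 and -0.75. let-7c went the other way, from 2.54 ± 1.60 to 5.25 ± 0.486 (0.93 ± 0.270, adjusted p = 0.00665), a direction in which 49.7% of all miRNAs and 36% of 5p-miRNAs were called, and it was not called with a pseudocount of 10.

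The calls for the middle members depended on the scale. On the authors' own scales (spike-in for total RNA, RPM for AGO2 IP) the members called lower went from 7 to 4, let-7a, let-7b, let-7d and let-7i. Of all 449 miRNAs tested there, 15 were called lower and 360 higher. The median of all miRNAs in HM moved from 0.61 to 1.47. Measured from that median, which moves with the scale, let-7b stood at -4.04 on the common scale and -3.94 on the authors' scales, let-7i at -2.90 and -2.79, let-7a at -2.63 and -2.51, and let-7c at 0.32 and 0.03.

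The difference between HM and WT in this ratio was tested directly. limma called 5 of 8 members lower in HM, where 6.24% of all miRNAs and 12.9% of 5p-miRNAs were called lower. The log2 differences were -4.29 ± 0.327 for let-7b (adjusted p = 5.82e-08), -2.38 ± 0.329 for let-7a (adjusted p = 8.33e-05), -2.02 ± 0.360 for let-7i (adjusted p = 0.000860), -1.85 ± 0.228 for let-7d (adjusted p = 2.68e-05) and -1.75 ± 0.300 for let-7f (adjusted p = 0.000592). let-7g (-1.15, adjusted p = 0.0625), let-7c (-0.65, adjusted p = 0.306) and let-7e (-0.42, adjusted p = 0.461) were not called. On the authors' scales let-7a, let-7b and let-7d were called lower, where 16 of 449 miRNAs were called lower and 330 higher. With 2 WT AGO2 IP libraries the WT ratio is the less certain side of this comparison.

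**Figure D5:**
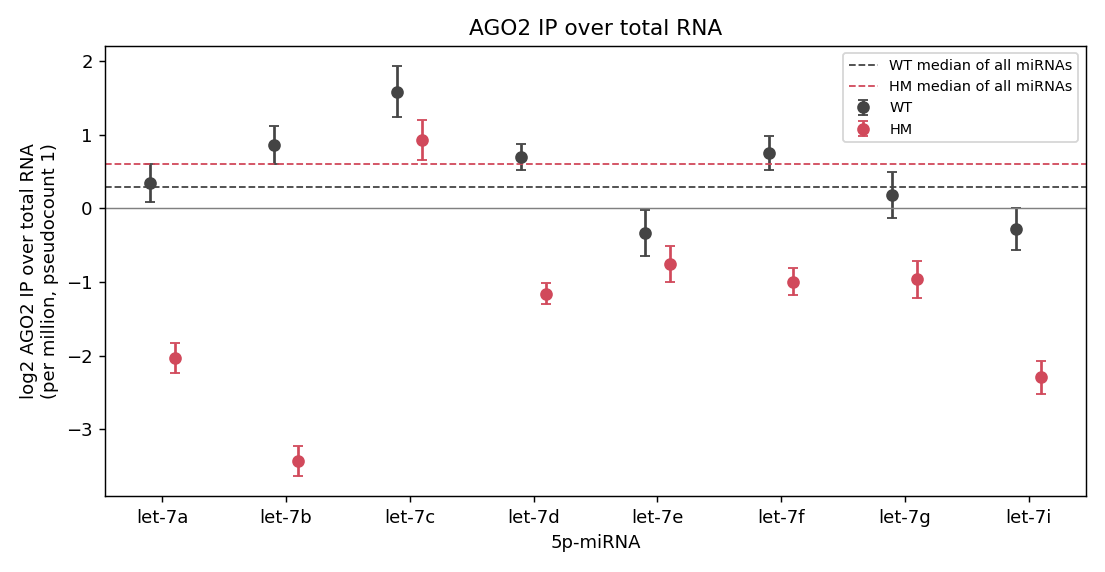
log2 difference between AGO2 IP and total RNA for 8 let-7 family 5p-miRNAs in WT and HM (each library scaled to 1000000 miRNA reads, pseudocount 1). Error bars are SE from limma, and dashed lines the medians over all miRNAs tested (0.29 in WT and 0.61 in HM). let-7b, let-7i and let-7a lie lowest in HM, and let-7c lies above 0 in both.

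Among other guide 5p-miRNAs, the 5 with the highest percentages left in HM total RNA were miR-677 (66.2%), miR-20a (4.18%), miR-135a (3.53%), miR-455 (2.71%) and miR-293 (2.50%), and the median over all 96 guide 5p-miRNAs was 0.424%. In AGO2 IP over total RNA, 1 of these was called lower like let-7b, 3 were called higher and 1 was not called. On the scale of 1000000 a library, miR-677-5p was at 148 in HM total RNA and 0.657 in AGO2 IP (log2 difference -6.50 ± 0.213, adjusted p = 1.29e-13). miR-20a-5p was at 504 in total RNA and 1003 in AGO2 IP (1.01 ± 0.163, adjusted p = 3.96e-05). miR-135a-5p went from 36.4 to 68.9 (0.96 ± 0.256, adjusted p = 0.00378) and miR-455-5p from 11.4 to 19.5 (0.77 ± 0.230, adjusted p = 0.00848). miR-293-5p was at 1769 and 1725 (-0.06 ± 0.201, adjusted p = 0.811). miR-122-5p was at 93.6 in HM total RNA and 1.85 in AGO2 IP (-4.91 ± 0.406, adjusted p = 1.42e-08), and also lower in AGO2 IP in WT (-1.97 ± 0.514, adjusted p = 0.00518). The other listed markers of other tissues, all 3p strands, are given on the deposited scales, which are not the same. All miRNAs summed to between 437249 and 549949 in HM total RNA and to between 975456 and 977911 in HM AGO2 IP. The size of a rise between these scales can therefore not be read from the values, and it was not tested. In HM, miR-1a-3p was at 461 in total RNA (spike-in scale) and 2906 in AGO2 IP (RPM), and miR-142a-3p at 118 and 465. miR-133a-3p was at 47.2 and 349, and miR-124-3p at 46.1 and 240. miR-223-3p was low in both, at 1.70 ± 1.38 and 3.94 ± 5.51 (SD), with a spread larger than its mean in AGO2 IP.

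The 5 miRNAs that share primary transcripts with let-7 genes, miR-99a, miR-99b, miR-100, miR-125a and miR-125b, were also left to unequal degrees. In HM total RNA, 0.214% ± 0.134 of miR-99b and 0.290% ± 0.140 of miR-125a were left, where their cluster partner let-7e kept 0.643%; the difference was not tested. miR-99a kept 1.68% ± 3.28, at 0 to 4 reads a library, and miR-125b 1.68% ± 0.534. miR-100 kept 49.4% ± 12.8 but was at only 10.1 in WT, with overlapping libraries, and on the scale of 1000000 it was at 10.3 in HM total RNA against 0.203 in AGO2 IP. All 3 partners that passed the filter (miR-99b, miR-125a and miR-125b) were called lower in HM than in WT, in total RNA and in AGO2 IP. So were 98.9% of the 5p-miRNAs tested in total RNA and 97.6% of those in AGO2 IP, so that this count is what the background gives. In AGO2 IP over total RNA in HM, miR-125b was called lower like most let-7 members (-1.44 ± 0.273, adjusted p = 0.000209, limma). miR-125a (0.45, adjusted p = 0.104) and miR-99b (0.45, adjusted p = 0.207) were not called.

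Over the 12 WT and HetKO total RNA libraries, the other 5p-miRNAs whose level was most like the family sum were miR-293 (Pearson r = 0.914), miR-7b (0.904), miR-290a (0.892), miR-322 (0.879) and miR-669c (0.873), out of 115 with a mean of at least 100 and a median r of 0.419. The libraries share the spike-in scale and the difference between genotypes, so that r describes both. Within the family let-7f followed the sum most closely (0.917), and let-7b (0.177) and let-7c (0.0991) did not follow it.

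In HEK293T cells the RNase IIIa change was set beside WT Dicer, with 1 library each, so that there is no replicate check and no test. Values are the deposited scores, in which 1 read counts for 234 with WT Dicer and 244 with D1320A. The human family was dominated by let-7a and let-7f with WT Dicer, at 26215 and 20896 reads. With D1320A they were at 6011 and 1966 reads. The share left was 23.95% for let-7a (95% exact interval 23.3 to 24.6, counting error only), 23.7% for let-7b (22.3 to 25.1) and 23.5% for miR-98 (18.3 to 29.8), whose intervals overlap.

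The other members were below those 3. let-7i was at 12.4% (11.6 to 13.2), let-7f at 9.83% (9.38 to 10.3), let-7e at 9.47% (7.99 to 11.2) and let-7d at 5.80% (3.75 to 8.61). let-7c was at 4.78% (3.49 to 6.41) and let-7g at 4.26% (3.63 to 4.97). The family sum was at 16.3%, where the median over 171 5p-miRNAs with at least 10 reads was 19.5%. The D1320A library held 103661 reads and the other 822285, and on a scale of equal totals the family sum was at 124% and the members between 32.3% and 182%. The let-7 3p strands went from 972 reads with WT Dicer to 9 with D1320A, and the 5p strand from 98.6% to 99.9% of let-7 reads.

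The order of members in HEK293T with D1320A was set beside that in HM total RNA as a description over 9 members, which share their sequences between the species' tables but come from different cells, enzymes and libraries. Spearman's rho was 0.850. let-7a, let-7b, let-7i and miR-98 were the 4 highest in both. let-7c was lowest in HM and let-7g in HEK293T, and let-7e, the 8th of 9 in HM, was 6th in HEK293T.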

How the data were processed

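Values were used as the authors deposited them. miRNAs had been counted with QuagmiR from QIAseq libraries, and the version, the miRNA database release and the genome build are not given in the sources used here. For total RNA the authors deposited a signal (spike-in normalized reads), for AGO2 IP the deposited values are RPM, and HEK293T values, of unstated scale, were taken as the deposited score. Deposited floors (0.01 in P19, 1 in HEK293T) were read as 0. Of 1413 P19 names 17 were blank. In P19, each of the 20775 values over the floor lay within 0.01 read of a whole number of reads. The members, lists and tests were chosen with earlier results of these data known. Named miRNAs followed a rule: the members, their 3p strands, cluster partners, the 5 other guide 5p-miRNAs with most left in HM (over 70% of the duplex and a mean over 100 in WT) and the 5 most like the family sum. miR-122-5p was on the list of markers of other cells. let-7d-3p and let-7e-3p are 3p strands of members.

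Groups were compared with limma 3.58.1 (R 4.3.3) using a pseudocount of 1 before log2. Only the groups compared entered a fit, and miRNAs averaging under 10 across them were left out. A fold change on this scale understates that of low miRNAs. Calls are Benjamini-Hochberg adjusted p under 0.05, two-sided. AGO2 IP over total RNA was 1 fit over 4 groups. Percent left is the ratio of group means, with the SD of the first group's libraries. HEK293T intervals are exact and cover counting error only. limma was tested on simulated data. Tables and figures were made in Python 3.11.15 (pandas 2.3.3, matplotlib 3.10.9), and exact tests and intervals with scipy 1.17.1 and numpy 2.4.6. Replicate numbers did not pair HM with WT libraries: same-numbered correlations of deviations ran from -0.15 to 0.29. Alternatives were the pseudocount, the filter, the scale, a replicate block and leaving out each library. limma-voom on recovered reads and fits within replicate sets were added after seeing the data.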

Additional observations from a re-analysis of the deposited data

Results flagged for a closer look

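In HetKO total RNA, replicate 4 lay far above the other 5 libraries for 3 members: let-7a at 691, let-7b at 106 and let-7i at 342 spike-in normalized reads. In HM total RNA, replicate 5 lay far above the others for let-7c, at 3.01, which is 9 reads. Of 40 groups of 4 or 6 libraries examined, these 4 passed Dixon's 95% limit, and chance flags about 1 in 20, or 2.

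The ratio of AGO2 IP to total RNA differed between HM and WT for 5 members by the interaction in limma. The log2 differences were -2.38 for let-7a, -4.29 for let-7b, -1.85 for let-7d, -1.75 for let-7f and -2.02 for let-7i.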

How the results depend on the processing

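The HM losses in total RNA and AGO2 IP kept their direction for each tested member under each alternative run. The call was lost for let-7b in total RNA when libraries were rescaled to the same total (-0.31 against WT, adjusted p = 0.133; -0.45 against HetKO, adjusted p = 0.204; limma). HetKO was the least stable comparison: 6 members were called, but 1 with means of replicate sets and 3 within replicates 1 and 4. let-7c was at -0.84 within replicates 1 and 4, and let-7b at -0.40 within 2 and 5 and -0.21 within 3 and 6. Leaving out one library at a time lost the HetKO call of let-7a in 2 cases and added that of let-7e in 4, and gave -0.28 to 0.14 for let-7b and -0.10 to 0.22 for let-7c. A filter at 100 left 5 members called for HM against HetKO and 4 for AGO2 IP, since fewer members were tested.

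AGO2 IP over total RNA depended on the scale. On the authors' scales 4 members were called lower in HM, 1 higher in WT and 3 lower for the difference. Of all 449 miRNAs tested on those scales, 15 were called lower in HM, 82 higher in WT and 16 lower for the difference. There let-7e was at 0.11 in HM, let-7g at -0.16 in WT, and the differences were 0.26 for let-7c, 0.79 for let-7e and 0.052 for let-7g. Without one library at a time, 1 to 4 members were called in WT (1 without WT AGO2 IP replicate 1, 2 without replicate 2), with let-7a at -0.014 to 0.72 and let-7g at -0.094 to 0.46. The lone WT AGO2 IP library was then assumed to vary like the other groups.

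Rescaled to the same total, the family sum in HM was at 6.81% of WT (let-7b at 82.0%), that in HetKO at 82.6% and that with D1320A at 124%. Scaled to guide 3p-miRNAs, AGO2 IP kept 0.728%. Pair differences changed sign with a pseudocount of 0.1 for let-7a over miR-98 (0.85), let-7f over let-7g (0.18) and let-7i over miR-98 (0.64), and with 10 for let-7a over let-7d (-1.36), let-7a over let-7i (-0.013) and let-7d over let-7i (1.35). let-7f over let-7g ran from -0.12 to 0.16 without one library at a time.

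With the replicate number as a block, 8 of 8 members were called in HM total RNA as before, and 2 pairs (let-7a with let-7d, let-7d with miR-98) lost their call, at an adjusted p of 0.0726 in the exact sign-flip test; the other 99 results stayed on the same side of the threshold, called or not (counts within 1.5 times). limma-voom, run for the 3 total RNA comparisons and for HM against WT in AGO2 IP, called the same numbers of members as limma there; it was not run for AGO2 IP over total RNA. The planned edgeR fit was not run because the deposited values are not counts. HM levels of let-7c, let-7d and miR-98 rest on 0 to 9 reads a library, which limits their percentages. Causes of these changes were not tested.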
